A study of Mus musculus with 8 samples.

Results

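Glycine tRNAs carry glycine to the ribosome, and their genes were picked out here by row name: the word tRNA, a copy number, the amino acid Gly and an anticodon. No level entered the choice, and 29 of the 964 rows of the table matched, out of 328 rows named as tRNA genes. They fall into 4 isoacceptors, tRNAs that carry the same amino acid but read different codons, with 14 copies of tRNA-Gly-GCC, 7 of tRNA-Gly-CCC, 7 of tRNA-Gly-TCC and 1 of tRNA-Gly-ACC. All 29 passed the filter on low values, which kept rows with at least 10 RPM (reads scaled to 1000000 per library) in at least 4 libraries.

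The series compared small RNA from sorted mouse bone marrow progenitors of the type named GMLP (granulocyte-monocyte-lymphoid progenitors). The iMLL-ENL group (iME in the labels) held 4 libraries of cells from mice that carry MLL-ENL, a leukaemia fusion of the histone methyltransferase MLL with ENL. The WT group held 4 libraries of cells from wild-type mice. Both groups, WT included, were kept with doxycycline (DOX) during 3 days of culture, and total RNA was then made into QIAseq miRNA libraries. No source used here gives the promoter behind the fusion, the strain, age and sex of the mice, or whether a library stands for 1 mouse or a pool. Since nothing says that replicates are different mice, p-values cover only the spread among these libraries, which may be technical. The anticodon of a row is known from its name alone. The table holds no messenger RNA, so neither the labelled cell type nor the level of the fusion could be checked.

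RNA polymerase III transcribes tRNA genes from promoter elements inside the gene, and mammals keep many near-identical copies of each. The GCC anticodon reads the codons GGC and GGU, CCC reads GGG, and TCC reads GGA and can read GGG by wobble, whereas ACC would pair with GGU and is a minor form in mammals. In small RNA libraries glycine tRNAs are well known as sources of fragments that angiogenin cuts in the anticodon loop under stress. Whole tRNAs and fragments were not told apart, as read lengths were not analysed here. In bulk samples such as these, fewer cells of a type and less RNA per cell cannot be told apart either.

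RefSeq places 28 nuclear glycine tRNA genes on 9 chromosomes of the mouse assembly GRCm38.p6, with 14 GCC, 6 CCC, 7 TCC and 1 ACC gene. Of these, 4 GCC and 5 TCC genes lie in 1 cluster of 64831 bp on chromosome 1, from 171037997 to 171102827. The ACC gene lies on chromosome 11, from 48823728 to 48823801. The genes are 71 bases long for GCC and CCC, 72 for TCC and 74 for ACC. These values were not divided by length, and with lengths this close the order of the isoacceptors on this scale is that per length too. RefSeq names do not pair with the copy numbers of the table, so no copy was given a position.

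Behind the RPM values stand 7620000 to 9270000 reads in iMLL-ENL libraries and 5910000 to 7700000 in WT libraries, if the smallest step between values is taken as 1 read. On that reading the lowest glycine copy rested on 175 to 196 reads in iMLL-ENL and 189 to 264 in WT, against a floor of 3 reads at 0.323 to 0.507 RPM over all libraries. Counting error is therefore small for the abundant copies, and the spread between libraries sets their precision. For the lowest copies, tRNA205-GlyACC and tRNA317-GlyCCC, counting error was not told apart from that spread. No source used here says how a read that matches several copies was counted. Values of near-identical copies may therefore share reads, and a sum may count a read more than once. Whether copies of different isoacceptors share reads is not known either. WT replicate 2 stood apart, with a mean correlation over the tested rows of 0.908 with the other WT libraries. The mean correlation with the rest of the group was 0.990 to 0.994 for iMLL-ENL libraries and 0.955 to 0.968 for WT replicates 1, 3 and 4.

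In every library tRNA-Gly-GCC was the most abundant of the 4, followed by CCC, TCC and ACC. On the deposited scale the CCC and TCC isoacceptors were higher in iMLL-ENL cells, ACC was lower, and GCC did not pass the test. Under some other scalings CCC, TCC and ACC each failed the test, and TCC also failed without some single libraries. CCC was 2.15 times as high as in WT, TCC 1.31 times and ACC 0.688 times. The balance inside the glycine family, which does not depend on the scaling between libraries, differed as well: CCC made up 15.5% ± 0.80 of the glycine tRNA signal in iMLL-ENL and 8.02% ± 0.33 in WT (SD, n = 4 each).

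tRNA-Gly-GCC, which reads the codons GGC and GGU, had 86407, 76030.4, 78789 and 84674 RPM in iMLL-ENL replicates 1 to 4, against 89903, 47169, 106707 and 78621 RPM in WT replicates 1 to 4. As a sum over 14 copies, which may share reads, it ranked 1 of 48 tRNA isoacceptors in both groups. The WT libraries were spread on both sides of the iMLL-ENL ones. The mean was 81475 ± 4879 RPM in iMLL-ENL and 80599.6 ± 25098 RPM in WT (SD, n = 4 each). The log2 fold change on log2(RPM + 1) was 0.08 ± 0.28 (SE), with a 95% interval of -0.55 to 0.70 and an adjusted p of 0.862. Here and below, adjusted p-values come from limma fits with Benjamini-Hochberg adjustment over all families, rows or ratios fitted, and a value under 0.05 is a call. WT replicate 2 was the lowest of the 8 libraries, and without it the log2 fold change was -0.16 (adjusted p = 0.249).

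tRNA-Gly-CCC, which reads GGG, had 16044, 14736, 13454 and 16583 RPM in iMLL-ENL replicates 1 to 4, against 8089, 4186, 8793 and 7192 RPM in WT replicates 1 to 4. The groups did not overlap, and the lowest iMLL-ENL library stood well above the highest WT library. The mean was 15204 ± 1401 RPM in iMLL-ENL and 7065 ± 2028 RPM in WT (SD, n = 4 each), a log2 fold change of 1.16 ± 0.24 (SE, adjusted p = 0.00659), and among the 48 isoacceptors CCC ranked 4 in iMLL-ENL and 7 in WT. The call held without any 1 library, with log2 fold changes from 0.92 to 1.28, and ended with TMM scaling, which centres the trimmed mean of the log ratios between libraries (0.76, adjusted p = 0.0561) and quantile normalization (0.75, adjusted p = 0.0550).

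tRNA-Gly-TCC, which reads GGA, had 1041, 1112, 1031 and 1136 RPM in iMLL-ENL replicates 1 to 4, against 777, 686, 878 and 959.7 RPM in WT replicates 1 to 4. The groups did not overlap, but the highest WT library lay close below the lowest iMLL-ENL library. The mean was 1080.0 ± 52.0 RPM in iMLL-ENL and 825 ± 119 RPM in WT (SD, n = 4 each). The log2 fold change was 0.40 ± 0.14 (SE, adjusted p = 0.0415), and the call rested on the scaling and on single libraries. It was -0.0003 (adjusted p = 0.998) after TMM scaling, and the call ended without any 1 library other than WT replicate 4, with adjusted p up to 0.113.

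tRNA-Gly-ACC, the single row tRNA205-GlyACC, had 25.3, 22.4, 22.3 and 21.9 RPM in iMLL-ENL replicates 1 to 4, against 37.0, 28.8, 37.0 and 31.0 RPM in WT replicates 1 to 4. All iMLL-ENL libraries lay below all WT libraries, with means of 23.0 ± 1.58 RPM in iMLL-ENL and 33.4 ± 4.18 RPM in WT (SD, n = 4 each). The log2 fold change was -0.52 ± 0.125 (SE, adjusted p = 0.0124) among the families and had an adjusted p of 0.0292 among the rows. As a family the call held without any 1 library, and it ended with a scale that omits the 5 most abundant rows (-0.21, adjusted p = 0.364), with quantile normalization (-0.24, adjusted p = 0.639) and with the total of the rows as scale (-0.24, adjusted p = 0.236). As a row it also ended without any 1 library other than WT replicate 2 or 4, with adjusted p up to 0.0914.

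**Figure D1:**
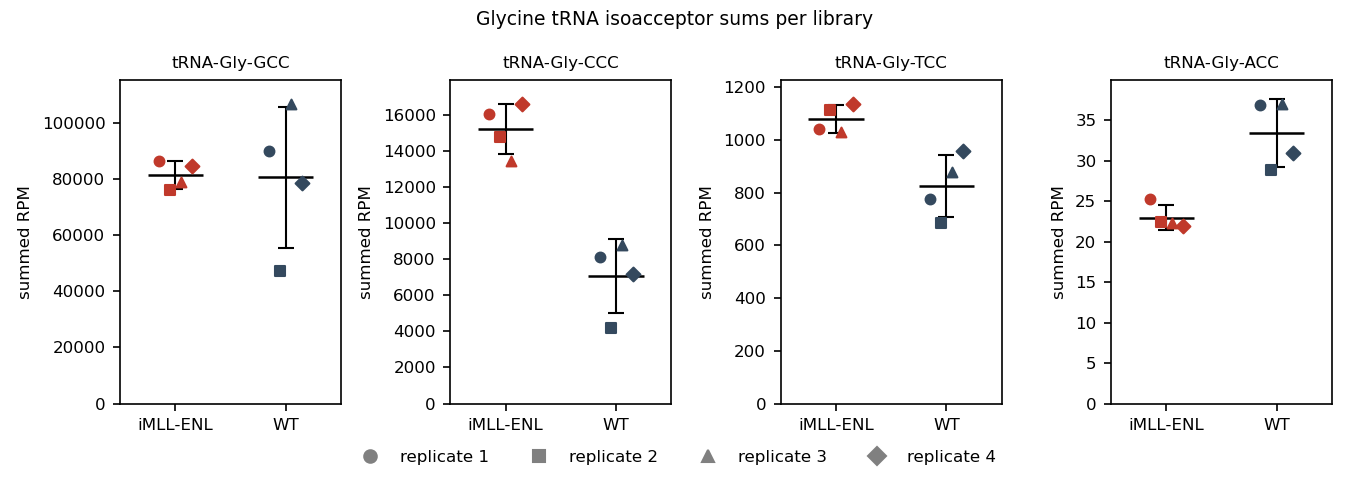
Summed RPM of the 4 glycine isoacceptors on linear axes from 0, with 1 point per library (its shape gives the replicate), iMLL-ENL left and WT right, a line at each mean and bars of 1 SD. CCC and TCC lie higher in iMLL-ENL without overlap, ACC lies lower without overlap, and the GCC points overlap, with WT replicate 2 lowest.

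Thus 2 of the 4 isoacceptors were called higher and 1 lower, against 26.9% called higher and 17.9% called lower among all 67 families of the table. The same isoacceptors did not overlap between the groups, against 31.3% of families not overlapping with iMLL-ENL higher and 16.4% with iMLL-ENL lower. The deposited scale itself leans upward in iMLL-ENL, with a median log2 fold change of 0.31 over the 633 tested rows. That median was -0.08 after TMM scaling and 0.59 with the total of the rows as scale. CCC lay above the median of the tested rows under all of these scalings, since each moves all rows of a library alike.

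The 4 isoacceptors together had 103517, 91901, 93296 and 102415 RPM in the iMLL-ENL libraries, against 98806, 52069.5, 116414 and 86804 RPM in the WT libraries. The iMLL-ENL libraries were close to each other, and WT replicate 2 was far below the other WT libraries, whose values overlapped the iMLL-ENL ones. As a share of all tRNA signal, glycine made up 45.4, 45.9, 46.2 and 46.0% in the iMLL-ENL libraries, against 33.6, 15.7, 38.9 and 35.4% in the WT libraries. Here every iMLL-ENL library was above every WT library. The base of this share differed too: the sum of all tRNA signal was 200080 to 228188 RPM in the iMLL-ENL libraries. It was 245430 to 332436 RPM in the WT libraries, so the share alone does not show whether the glycine level differed. In WT replicate 2, tRNA-Asp-GTC alone had 168573 RPM, against 31830 to 50309 RPM in the other WT libraries, and its part in the low glycine share of that library was not tested.

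Ratios inside a library are free of the scaling between libraries. CCC over the sum of the other 3 glycine isoacceptors was higher in iMLL-ENL by 1.08 ± 0.07 on the log2 scale (SE, 95% interval 0.92 to 1.24, adjusted p = 1.31e-05), the smallest p of the 40 isoacceptor ratios fitted. GCC over the others was lower by a difference of -1.01 ± 0.08 (adjusted p = 2.66e-05). These are near mirror images, because GCC and CCC make up almost all glycine signal, and they are not independent results. ACC over the others was lower by a difference of -0.72 ± 0.21 (adjusted p = 0.0194), a call lost when iMLL-ENL replicate 1, 3 or 4 was left out (largest adjusted p 0.0678). TCC over the others was at 0.20 ± 0.21, with a 95% interval of -0.28 to 0.68 (adjusted p = 0.429). Among the 40 ratios 27.5% were called higher and 25% lower.

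The CCC share of the glycine signal was 15.5, 16.0, 14.4 and 16.2% in the iMLL-ENL libraries, against 8.19, 8.04, 7.55 and 8.29% in the WT libraries. The spread inside each group was small beside the gap between them, and WT replicate 2, which stood apart in level, did not stand apart here. The ratio of GCC to CCC was 5.39, 5.16, 5.86 and 5.11 in the iMLL-ENL libraries, against 11.1, 11.3, 12.1 and 10.9 in the WT libraries. Every iMLL-ENL ratio was below every WT ratio. The CCC ratio was called in all 13 alternatives tried, at 1.05 to 1.12, and the GCC ratio likewise, at -1.05 to -0.97.

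The TCC share was 1.01, 1.21, 1.11 and 1.11% in the iMLL-ENL libraries, against 0.786, 1.32, 0.754 and 1.11% in the WT libraries. The groups overlapped, and WT replicate 2 had the highest share of all 8 libraries. The ACC share was 0.024, 0.024, 0.024 and 0.021% in the iMLL-ENL libraries, against 0.037, 0.055, 0.032 and 0.036% in the WT libraries. Every iMLL-ENL library was below every WT library, with WT replicate 2 again the highest.

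**Figure D2:**
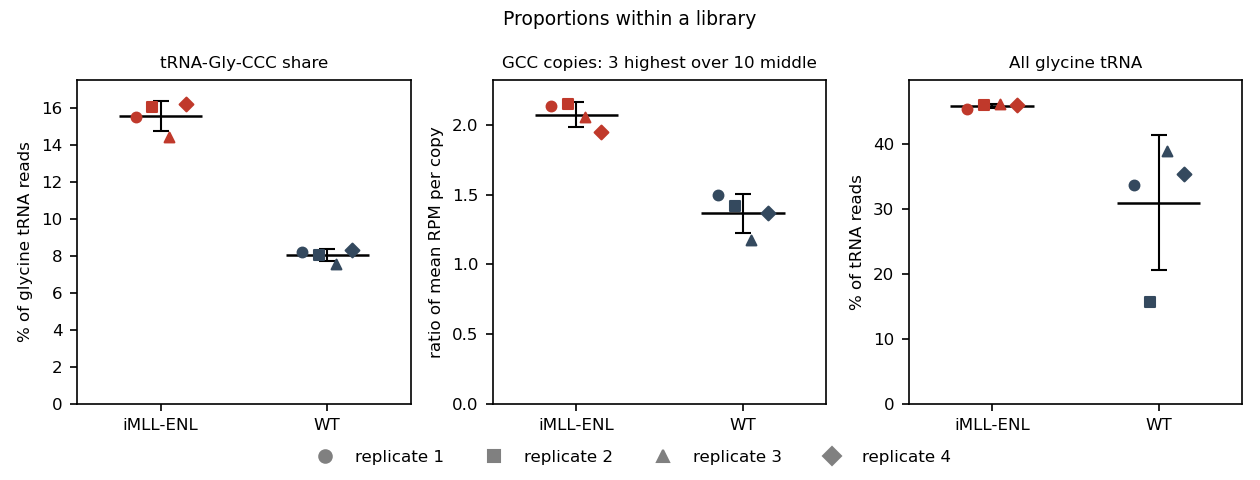
Proportions inside each library: the CCC percent of glycine tRNA signal, the mean of the 3 highest GCC copies over the mean of the 10 middle ones, and glycine as a percent of all tRNA signal, with 1 point per library, a line at each mean and bars of 1 SD. The CCC percent was 14.4% to 16.2% in iMLL-ENL and 7.55% to 8.29% in WT, and in all 3 panels every iMLL-ENL library lies above every WT library. The sum of all tRNA signal, the base of the last panel, was lower in every iMLL-ENL library than in every WT library.

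By copy, 7 of the 29 glycine rows were higher in iMLL-ENL and 1 was lower, which is 24.1% and 3.45%, against 20.4% called higher and 8.53% called lower among the 633 tested rows. The other 21 did not pass the test. An unadjusted p under 0.05 in limma was found for 14 of the 29, and its share over all tested rows was not counted. The share called was thus near that of the whole table, and the calls were unevenly placed, with 5 of 7 CCC copies, 1 of 14 GCC copies, 1 of 7 TCC copies and the ACC row. The median log2 fold change was 0.36 over the glycine rows, against 0.31 over all tested rows, and it was 0.99 for CCC, -0.12 for GCC and 0.40 for TCC. The groups did not overlap for 15 copies with iMLL-ENL higher and for 1 with iMLL-ENL lower, 51.7% and 3.45% of the copies, against 27.2% and 11.4% of the tested rows. The number called depended on WT replicate 2: without it 8 copies were higher and 11 lower, against 39.9% and 15.7% of the 617 rows then tested. After TMM scaling 0 were higher and 2 lower, against 6% and 20.7% of the rows, and with the total of the rows as scale 13 were higher and 0 lower, against 39.7% and 4.27% of the rows.

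Among the 7 CCC copies, tRNA287-GlyCCC was the most abundant, with 5907, 5019.7, 4971 and 5949 RPM in the iMLL-ENL libraries, against 2904, 1285, 2969.9 and 2349 RPM in the WT libraries. tRNA755-GlyCCC followed with 5563, 4752, 4601 and 5519.6 RPM in the iMLL-ENL libraries, against 2616, 1148, 2639 and 2123 RPM in the WT libraries. In both the groups were far apart, and WT replicate 2 was the lowest library. Their log2 fold changes were 1.27 ± 0.28 (SE, adjusted p = 0.0141) and 1.33 ± 0.28 (adjusted p = 0.0125), with means of 5462 ± 539 RPM in iMLL-ENL and 2377 ± 779 RPM in WT (SD, n = 4 each) for tRNA287-GlyCCC. Of all the alternatives tried, TMM scaling alone ended these calls, with adjusted p of 0.0746 and 0.0598.

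tRNA67-GlyCCC had 1319.6, 1263, 1176 and 1578 RPM in the iMLL-ENL libraries, against 859, 352, 932 and 709 RPM in the WT libraries. tRNA752-GlyCCC had 1289.8, 1269.5, 1107 and 1539 RPM in the iMLL-ENL libraries, against 789.9, 347, 881 and 660.4 RPM in the WT libraries. These copies were nearly equal to each other in every library, with WT replicate 2 far below the rest and no overlap between the groups. The log2 fold changes were 0.99 ± 0.30 (SE, adjusted p = 0.0388) for tRNA67-GlyCCC and 1.03 ± 0.29 (adjusted p = 0.0303) for tRNA752-GlyCCC. Leaving out any 1 library other than WT replicate 2 or 3 ended the call of tRNA67-GlyCCC (largest adjusted p 0.103). Leaving out WT replicate 1 or any 1 iMLL-ENL library ended that of tRNA752-GlyCCC (largest adjusted p 0.0852). Both calls also ended after TMM scaling (adjusted p = 0.245 and 0.191), quantile normalization (0.140 and 0.0950) and median centring (0.0912 and 0.0715).

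tRNA282-GlyCCC had 1707, 2192, 1345 and 1677 RPM in the iMLL-ENL libraries, against 651, 839.7, 1104 and 1086 RPM in the WT libraries. The groups did not overlap, but the order of the libraries was another one: the highest iMLL-ENL library was replicate 2 and the lowest WT library was replicate 1. Its log2 fold change was 0.92 ± 0.23 (SE, adjusted p = 0.0223), and the call was lost when iMLL-ENL replicate 1, 2 or 4, or WT replicate 1, was left out (largest adjusted p 0.0653). The call was also lost after TMM scaling (0.52, adjusted p = 0.195) and median centring (0.82, adjusted p = 0.0577).

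The remaining CCC copies did not pass the test. tRNA112-GlyCCC had 227, 219, 230.2 and 288 RPM in the iMLL-ENL libraries, against 231, 185, 235 and 229 RPM in the WT libraries. tRNA317-GlyCCC, the least abundant, had 32.2, 20.7, 24.1 and 31.7 RPM in the iMLL-ENL libraries, against 38.2, 28.8, 32.0 and 35.9 RPM in the WT libraries. In both the groups overlapped, and the log2 fold changes were 0.13 (95% interval -0.19 to 0.45, adjusted p = 0.518) and -0.32 (95% interval -0.72 to 0.09, adjusted p = 0.200).

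The test of each copy over the other copies of its isoacceptor shows the same split without regard to scaling. Against the other CCC copies, tRNA112-GlyCCC was lower in iMLL-ENL, with a difference of -1.05 ± 0.18 on the log2 scale (SE, adjusted p = 0.00315), and tRNA317-GlyCCC was lower, with a difference of -1.48 ± 0.21 (adjusted p = 0.00149). tRNA755-GlyCCC was higher by 0.25 ± 0.07 (adjusted p = 0.0391), a call lost when iMLL-ENL replicate 1, 3 or 4, or WT replicate 3 or 4, was left out (largest adjusted p 0.0934). The other 4 CCC copies, tRNA287-GlyCCC, tRNA67-GlyCCC, tRNA752-GlyCCC and tRNA282-GlyCCC, did not pass, with differences of 0.17, -0.19, -0.14 and -0.28. Without WT replicate 2, tRNA67-GlyCCC (adjusted p = 0.014) and tRNA752-GlyCCC (adjusted p = 0.0488) were called lower than the others. The top 2 copies, tRNA287-GlyCCC and tRNA755-GlyCCC, held 71.5, 66.3, 71.1 and 69.2% of the CCC signal in the iMLL-ENL libraries, against 68.2, 58.1, 63.8 and 62.2% in the WT libraries, and the groups overlapped.

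**Figure D3:**
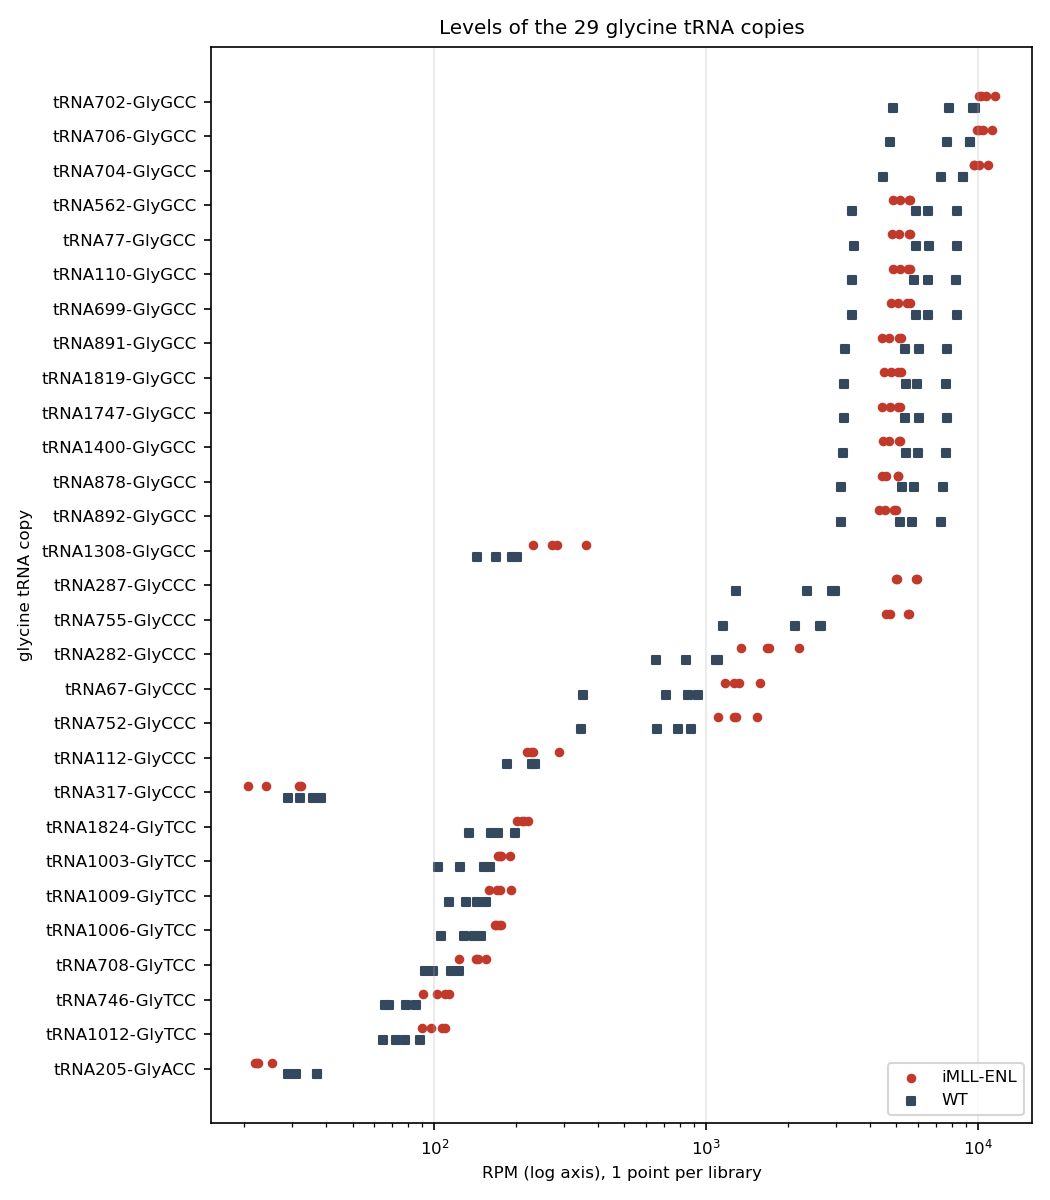
RPM (log axis) of each of the 29 glycine tRNA copies, grouped by isoacceptor, with 1 point per library and the iMLL-ENL circles above the WT squares of the same copy. The means run from 23.0 ± 1.58 RPM in iMLL-ENL and 33.4 ± 4.18 RPM in WT (SD, n = 4 each) for tRNA205-GlyACC up to tRNA702-GlyGCC, and 10 GCC copies share 1 level of 4686 to 5305 RPM in iMLL-ENL and 5330.5 to 6088 RPM in WT.

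The 14 GCC copies fell into 3 levels, a grouping made after the values were seen. At the top were tRNA702-GlyGCC, tRNA706-GlyGCC and tRNA704-GlyGCC. Below them were 10 copies of nearly 1 level (tRNA562, tRNA77, tRNA110, tRNA699, tRNA891, tRNA1819, tRNA1747, tRNA1400, tRNA878 and tRNA892), with means of 4686 to 5305 RPM in iMLL-ENL and 5330.5 to 6088 RPM in WT. The coefficient of variation among these 10 copies inside a library was 4.67% to 5.11% in iMLL-ENL and 4.41% to 5.44% in WT. tRNA1308-GlyGCC was far below both.

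tRNA702-GlyGCC, the most abundant glycine copy, had 11512, 10049, 10221 and 10651 RPM in the iMLL-ENL libraries, against 9723, 4848, 9593 and 7845 RPM in the WT libraries. tRNA706-GlyGCC had 11297, 9933, 10118 and 10450.2 RPM in the iMLL-ENL libraries, against 9344, 4727, 9328 and 7670.2 RPM in the WT libraries. tRNA704-GlyGCC had 10840.0, 9698, 9648 and 10066 RPM in the iMLL-ENL libraries, against 8776, 4464, 8823 and 7298 RPM in the WT libraries. In all 3 the groups did not overlap, and WT replicate 2 was by far the lowest library. Their log2 fold changes of 0.46, 0.48 and 0.50 did not pass the test, with adjusted p of 0.194, 0.175 and 0.153. After quantile normalization all 3 were called, at 0.84, 0.83 and 0.86 (adjusted p = 0.0377, 0.0445 and 0.0445), and without WT replicate 2 tRNA704-GlyGCC was called at 0.28 (adjusted p = 0.0357). After TMM scaling they were at 0.06, 0.08 and 0.11, with no call. For tRNA702-GlyGCC the means were 10608 ± 654 RPM in iMLL-ENL and 8002 ± 2271 RPM in WT (SD, n = 4 each).

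In the 10 copies of the middle level the libraries stood in another order. tRNA77-GlyGCC had 5551, 4836, 5122 and 5603 RPM in the iMLL-ENL libraries, against 6592, 3499.9, 8363 and 5897 RPM in the WT libraries. tRNA699-GlyGCC had 5498, 4764, 5082 and 5604 RPM in the iMLL-ENL libraries, against 6560.2, 3446, 8387 and 5896 RPM in the WT libraries. tRNA562-GlyGCC had 5561, 4872, 5182 and 5605 RPM in the iMLL-ENL libraries, against 6548, 3444, 8383 and 5930.1 RPM in the WT libraries. In these copies 3 of 4 WT libraries lay above every iMLL-ENL library, and WT replicate 2 lay below all of them. tRNA891-GlyGCC had 5107, 4451, 4711 and 5195 RPM in the iMLL-ENL libraries, against 6047, 3228, 7690.0 and 5381 RPM in the WT libraries. tRNA1400-GlyGCC had 5105, 4476, 4697 and 5182 RPM in the iMLL-ENL libraries, against 6021, 3194, 7649 and 5415 RPM in the WT libraries. tRNA1747-GlyGCC had 5064, 4444, 4724 and 5165 RPM in the iMLL-ENL libraries, against 6085, 3226, 7673 and 5365 RPM in the WT libraries. The pattern of libraries was the same in them, and the 10 copies are not independent measurements. Their log2 fold changes were -0.15 to -0.11, with adjusted p of 0.736 to 0.787. Without WT replicate 2 all 10 were called lower in iMLL-ENL, at a median of -0.375, and without WT replicate 3 the median was 0.05. The direction of that median also turned with the scaling: it was -0.13 on the deposited scale, -0.53 after TMM scaling, 0.33 after quantile normalization, 0.16 with the total of the rows as scale and 0.19 with a total that omits the 5 most abundant rows. None of the 10 was called under these scalings.

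**Figure D4:**
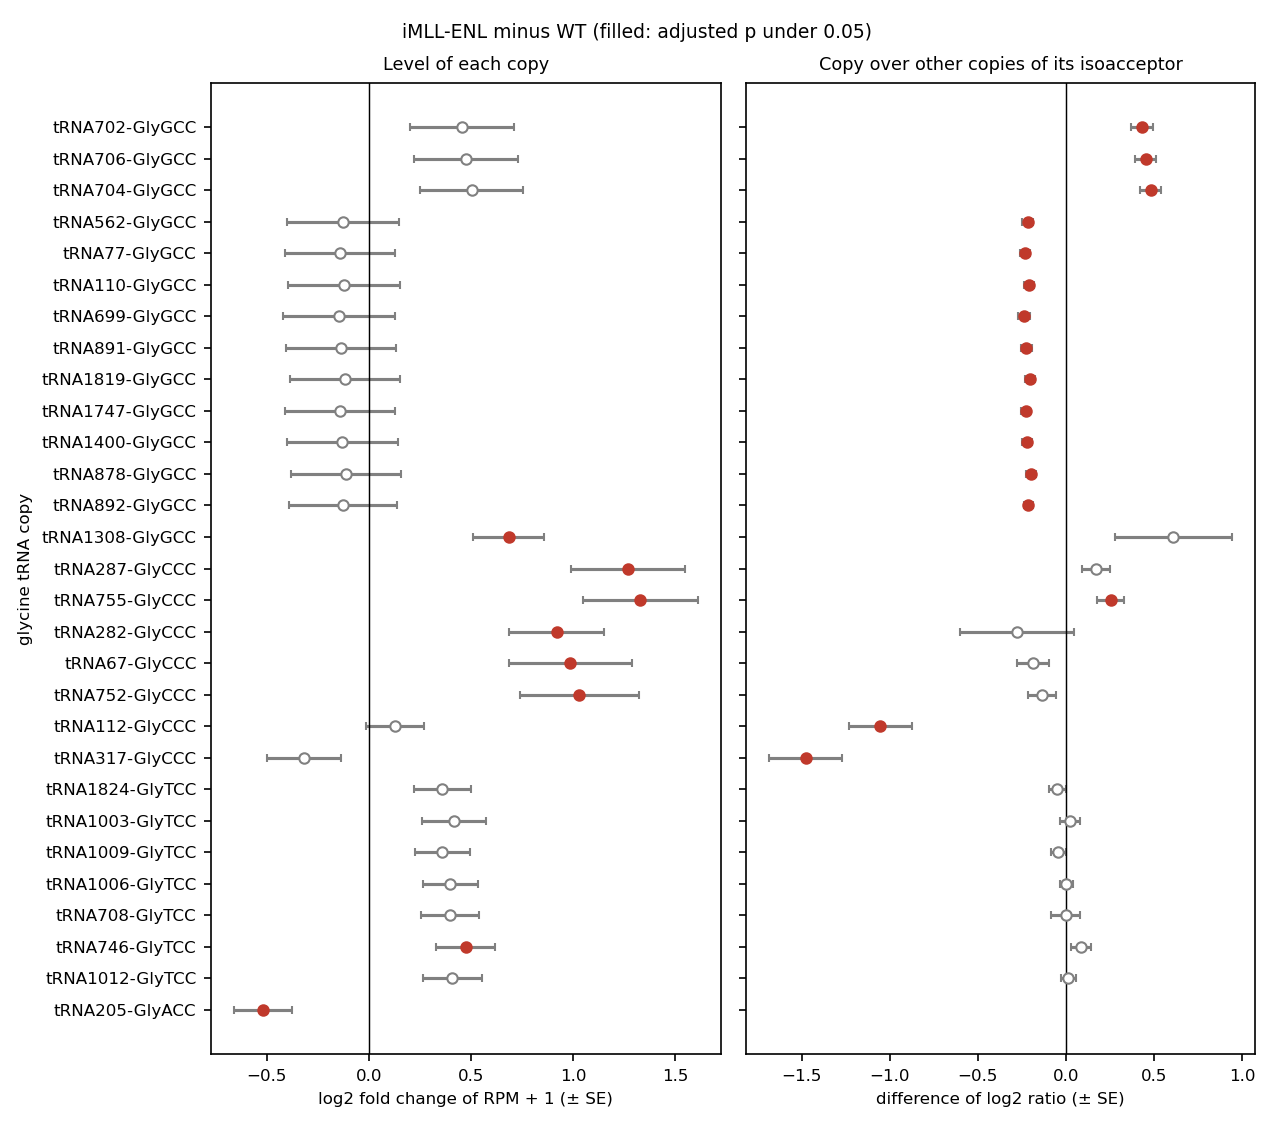
Log2 fold change of each glycine copy (iMLL-ENL minus WT, on log2(RPM + 1)) beside its change over the other copies of its isoacceptor, with bars of 1 SE and filled points where the adjusted p was under 0.05. The bars of the 10 middle GCC copies cross 0 for the level and lie below 0 for the ratio, at -0.24 to -0.20.

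The ratio over the other GCC copies separated these levels. tRNA704-GlyGCC was higher in iMLL-ENL by 0.48 ± 0.06 on the log2 scale (SE, adjusted p = 0.00137), tRNA706-GlyGCC by 0.45 ± 0.06 (adjusted p = 0.00141) and tRNA702-GlyGCC by 0.43 ± 0.06 (adjusted p = 0.00165). The 10 middle copies were each lower, with differences of -0.24 to -0.20 and adjusted p of 0.00108 to 0.00149. All 13 calls held in the 14 alternatives tried, each library left out in turn included. Copies of 1 isoacceptor share the ratio, so these calls amount to 1 shift between the top 3 copies and the 10 below them.

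The top 3 GCC copies made up 38.9, 39.0, 38.1 and 36.8% of the GCC signal in the iMLL-ENL libraries, against 31.0, 29.8, 26.0 and 29.0% in the WT libraries. Every iMLL-ENL library was above every WT library. The mean of the 3 over the mean of the 10 was 2.14, 2.15, 2.06 and 1.95 in the iMLL-ENL libraries, against 1.50, 1.42, 1.17 and 1.37 in the WT libraries. WT replicate 2 lay among the other WT libraries in this ratio, and WT replicate 3 was the lowest. The grouping was made after the values were seen, so these shares are a description with no test. On log2(RPM + 1) over all libraries, the top 3 GCC copies correlated at 0.911 to 0.939 with tRNA287-GlyCCC and tRNA755-GlyCCC. With the 10 middle GCC copies they correlated at 0.563 to 0.634. Whether GCC and CCC copies share reads was not tested. The shift among the GCC copies and that of CCC against GCC may therefore not be separate results.

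tRNA1308-GlyGCC, the least abundant GCC copy, had 283, 360.1, 230.0 and 270.0 RPM in the iMLL-ENL libraries, against 144, 193, 168 and 202 RPM in the WT libraries. The groups did not overlap, and in WT the replicate 2 library was not low, unlike in the other GCC copies. It was the GCC copy that passed the row test, with a log2 fold change of 0.68 ± 0.17 (SE, adjusted p = 0.0223), a call lost without WT replicate 1 (adjusted p = 0.0739) or without iMLL-ENL replicate 1 (adjusted p = 0.0606). The call of tRNA1308-GlyGCC also ended after TMM scaling (0.29, adjusted p = 0.296) and quantile normalization (0.57, adjusted p = 0.0789). Over the other GCC copies its difference was 0.61 ± 0.33 (adjusted p = 0.213), and without WT replicate 2 it was 0.89 (adjusted p = 0.0271).

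The 7 TCC copies had nearly the same change as each other. tRNA1824-GlyTCC, the most abundant, had 201, 211, 214 and 221 RPM in the iMLL-ENL libraries, against 161, 134, 171 and 198 RPM in the WT libraries. tRNA1003-GlyTCC had 171, 175, 176 and 189.9 RPM in the iMLL-ENL libraries, against 124, 104, 152 and 160.1 RPM in the WT libraries. tRNA1009-GlyTCC had 159, 174, 170.4 and 192 RPM in the iMLL-ENL libraries, against 131, 113, 143 and 155 RPM in the WT libraries. WT replicate 2 was the lowest library in each, and the groups did not overlap.

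tRNA746-GlyTCC had 102, 114, 90.4 and 109.6 RPM in the iMLL-ENL libraries, against 68.0, 66.0, 78.8 and 85.9 RPM in the WT libraries. It was the TCC copy that passed the row test, with a log2 fold change of 0.47 ± 0.14 (SE, adjusted p = 0.0375), and its groups did not overlap. That call ended without any 1 library other than WT replicate 2 or 4, with adjusted p up to 0.105. It also ended after TMM scaling (0.08, adjusted p = 0.826), quantile normalization (0.30, adjusted p = 0.160) and median centring (0.37, adjusted p = 0.138). A fit without a trend in the prior ended it too (adjusted p = 0.0513). The other 6 TCC copies had log2 fold changes of 0.36 to 0.42 with adjusted p of 0.0501 to 0.0776, and of the 7 copies tRNA708-GlyTCC had overlapping groups. All 7 TCC copies had an unadjusted p under 0.05, but they correlated with each other at 0.842 to 0.987 and are not independent. Over the other TCC copies 0 of 7 passed in limma, with differences of -0.05 to 0.08, adjusted p of 0.311 to 0.991 and 0 with an unadjusted p under 0.05.

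Counted together, 4 of the 28 copies with a partner were higher over the other copies of their isoacceptor and 12 were lower, against 13.8% and 15.9% of the 276 copy ratios fitted over all tRNA families. The other 12 did not pass. The lower calls were the 10 middle GCC copies with tRNA112-GlyCCC and tRNA317-GlyCCC. The higher calls were the top 3 GCC copies with tRNA755-GlyCCC. The GCC calls amount to a single shift, so these counts are not shares of independent copies.

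**Figure D5:**
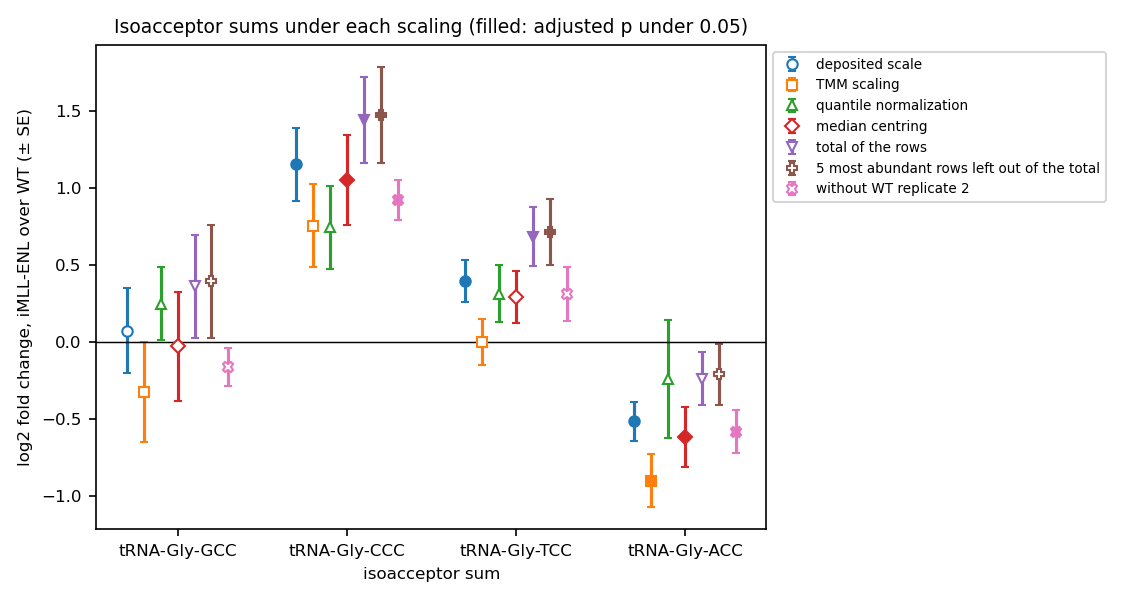
Log2 fold change of each isoacceptor sum (iMLL-ENL minus WT) on the deposited scale, under 5 other scalings and without WT replicate 2, with bars of 1 SE and filled points where the adjusted p was under 0.05. CCC stays above 0 throughout, from 0.75 to 1.47, while GCC lies on both sides of 0 and TCC is at -0.0003 after TMM scaling.

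Other isoacceptors known as sources of such tRNA fragments did not share 1 direction. Of 8 chosen for comparison, 1 was higher in iMLL-ENL (tRNA-Lys-CTT, log2 fold change 0.82, adjusted p = 0.00556) and 3 were lower, against 26.9% and 17.9% of all families. The 3 were tRNA-His-GTG at -2.02 (adjusted p = 0.00659), tRNA-Asp-GTC at -1.42 (adjusted p = 0.0371) and tRNA-Val-CAC at -0.79 (adjusted p = 0.0320). The tRNA-His-GTG call held in all alternatives, and those of the other 3 isoacceptors ended in some of them. The tRNA-Val-CAC change turned to 0.15 after quantile normalization (adjusted p = 0.522). tRNA-Glu-CTC, tRNA-Glu-TTC, tRNA-Lys-TTT and tRNA-Val-AAC did not pass the test. The median of the 8 was -0.44, against 0.24 over all families.

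By the authors' deposited table, 0 of the 29 glycine copies were higher at an FDR under 0.05 and 1 was lower, against 4.56% and 11.9% of its 964 rows. The 1 was tRNA205-GlyACC, with a log2 fold change of -0.94 and an FDR of 0.0468 in the authors' deposited table. An unadjusted p under 0.05 stood beside 4 of the 29 in the authors' deposited table, a share not counted here over all rows. No source used here names the tool behind that table. The split inside GCC is present in the authors' deposited table too, at -0.63 to -0.59 for the 10 middle copies and 0.003 to 0.05 for the top 3. The TCC copies were at -0.05 to 0.07 in the authors' deposited table, so the higher TCC level is not seen there. The CCC copies ran from -0.71 to 0.85 in it, the highest being tRNA755-GlyCCC with an FDR of 0.109. These come from the same libraries and are no separate evidence.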

How the data were processed

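Small RNA of 4 iMLL-ENL and 4 WT libraries was measured, and all 8 library columns of the table were used. The authors deposited RPM, reads scaled to 1000000 per library. The deposited table is labelled TPM, but in each library all values are whole multiples of 1 step within 0.0055 RPM, whatever the row, so they were not divided by length. The authors also deposited a log2 fold change, a p-value and an FDR per row. Per the submitters' processing notes the build was GRCm38. No source used here names the aligner, the counting program, or how multiply mapped reads and molecular indexes were treated.

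From these values, limma 3.58.1 (R 4.3.3, statmod 1.5.0) was fitted on log2(RPM + 1) with a trended robust prior, two-sided, with Benjamini-Hochberg adjustment over the whole table at 0.05. Fold changes on this scale understate the change of low rows. The fit took 633 rows with at least 10 RPM in at least 4 libraries, and, without a filter, 67 families summed by name. The same test was run on log2 ratios of an isoacceptor over the other isoacceptors of its amino acid (40 ratios), and of a copy over the other copies of its isoacceptor (276 ratios). The fit of the rows was tested on simulated data with independent noise in each row, which leaves out the correlation between copies. Shares and sums over members are descriptions with no test. Numbers were summarised in Python 3.11.15 with pandas 2.3.3 and numpy 2.4.6, and drawn with matplotlib 3.10.9.

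Values per library are given for the isoacceptor sums, the 3 most abundant copies of each isoacceptor, and copies called by the row or ratio test (at most 10 per isoacceptor). The members and lists were chosen with earlier results of these data known. Alternatives were other scalings, pseudocounts of 0.5 and 10, no filter, no trend, sample quality weights, a replicate block and each library left out. Count models were not run, because whole reads could not be recovered from the steps with certainty. Floors in reads cover counting error only, whereas the 95% intervals come from the limma fits and cover the spread between libraries. No sequence is shown, since the sources used here hold none for these copies.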

Additional observations from a re-analysis of the deposited data

Results flagged for a closer look

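Of 110 groups of 4 libraries examined, 6 held a library far from the other 3, and chance alone flags about 1 group in 20. tRNA-Gly-ACC, with its single row tRNA205-GlyACC, was at 25.34 RPM in iMLL-ENL replicate 1, against 21.92 to 22.43 RPM in the other iMLL-ENL libraries, as the isoacceptor sum and as the row alike. tRNA112-GlyCCC was at 287.58 RPM in iMLL-ENL replicate 4, against 218.99 to 230.19 RPM in the other iMLL-ENL libraries. In the WT group tRNA112-GlyCCC was at 185.47 RPM in replicate 2, against 229.44 to 234.87 RPM in the others. The coefficient of variation among the 3 most abundant GCC copies was 1.805% in iMLL-ENL replicate 2, against 2.863% to 3.062% in the other iMLL-ENL libraries. The coefficient of variation among the 10 middle GCC copies was 4.414% in WT replicate 2, against 5.281% to 5.44% in the other WT libraries.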

How the results depend on the processing

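Over the 13 alternatives that apply to ratios inside a library, CCC over the other glycine isoacceptors (1.05 to 1.12) and GCC over the others (-1.05 to -0.97) kept direction and call. Over 14 alternatives the shift between the top 3 and the 10 middle GCC copies did so too, as did the lower ratios of tRNA112-GlyCCC and tRNA317-GlyCCC. The number of copy ratios called was 15 to 19. Levels depended more on the scaling. The GCC sum was at -0.32 after TMM scaling, -0.028 after median centring and -0.13 with sample quality weights, none of them called, and between -0.16 and 0.23 with 1 library left out. The CCC sum lost its call after TMM scaling (0.76) and quantile normalization (0.75), and lay between 0.92 and 1.28 with 1 library left out. The TCC sum was at -0.0003 after TMM scaling, lost its call after quantile normalization (0.32) and median centring (0.30), and lay between 0.31 and 0.47 with 1 library left out. The ACC sum lost its call after quantile normalization (-0.24), with the total of the rows as scale (-0.24) and with a total that omits the 5 most abundant rows (-0.21). Against 8 copies called, 2 were called after TMM scaling, 4 after median centring (3 higher, 1 lower, against 16.6% and 10.4% of all tested rows), 13 with either total as scale (0 lower in both), 25 with sample quality weights (13 higher, 12 lower, against 50.9% and 21.3% of rows), and 2 to 19 with 1 library left out. tRNA112-GlyCCC turned to -0.27 after TMM scaling and -0.019 after quantile normalization, and after TMM scaling tRNA1009-GlyTCC turned to -0.036 and tRNA1824-GlyTCC to -0.038. The cause of these changes was not tested. Of the fits with 1 library left out, the share called over all rows was counted only for that without WT replicate 2. Over the tested rows 129 were higher and 54 lower, against 38 and 131 after TMM scaling, 70 and 63 after quantile normalization and 251 and 27 with the total of the rows.

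With the replicate number as a block, the TCC sum stayed at 0.40 and lost its call (adjusted p = 0.0630), and no other call of a glycine sum, copy or ratio changed. Of the comparison isoacceptors, tRNA-Asp-GTC lost its call with the block (adjusted p = 0.0578). Deviations of same-numbered libraries correlated at 0.39, 0.29, -0.13 and 0.42 for replicates 1 to 4. Replicates 1, 2 and 4 matched best with their own number, which is a hint of pairing, and replicate 3 did not. The numbers were not taken as pairs, since the rule used asks for a correlation over 0.1 in every pair and the labels tie the numbers to nothing shared. The planned count models were not run. With 4 libraries per group, 1 of which stood apart, differences as small as those of TCC and ACC lie near the limit of what these data can separate.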

Other observations

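The glycine isoacceptors varied less between iMLL-ENL libraries than between WT libraries. The coefficient of variation over the 4 libraries of a group was 5.99% in iMLL-ENL and 31.1% in WT for tRNA-Gly-GCC. It was 9.21% in iMLL-ENL and 28.7% in WT for tRNA-Gly-CCC, and 4.82% in iMLL-ENL and 14.4% in WT for tRNA-Gly-TCC. For tRNA-Gly-ACC it was 6.86% in iMLL-ENL and 12.5% in WT. The median over all 48 isoacceptors was 11.4% in iMLL-ENL and 14.7% in WT. Without WT replicate 2 the WT values were 15.4% for GCC, 9.995% for CCC, 10.5% for TCC and 9.92% for ACC, with a median of 9.61% over the 48. These are descriptions with no test of the difference in spread.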
